A study of Rattus norvegicus with 6 samples.

Results

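Mural cells wrap the walls of blood vessels. Pericytes sit within the basement membrane of capillaries and signal with the endothelium through PDGF, Notch and angiopoietin, while smooth muscle cells circle the larger vessels and airways and shorten by sliding actin and myosin filaments. Both set vascular tone, and in the lung their loss, detachment or spread along vessel walls has long been studied in pulmonary hypertension and fibrosis. Rgs5, a regulator of G protein signalling, is a common marker of both kinds.

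Rgs5 mural cells were sought among 25547 single cells from the lungs of young adult Sprague Dawley rats, an outbred stock. BLM rats were 3 animals given 1 intratracheal dose of bleomycin (BLM, 5 mg/kg), a DNA-cutting antitumour drug that scars the lung, and Control rats were 3 animals given an equal volume of saline. All 6 lungs were taken at day 28, and a small piece of each was digested, which limits what a share of cells says about the organ. Cell names in the table carry the codes F1 to F3 and N1 to N3, which the labels do not explain. F was read as BLM and N as Control because the cell totals of both codes equal those the study gives for its groups, and the number in the code was taken as the replicate number, so every direction between BLM and Control rests on that reading.

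A cell was a member when it held 2 or more unique molecular identifiers (UMIs, each a counted transcript) of Rgs5 and at least 1 UMI of Cspg4, Pdgfrb, Cnn1 or Myh11. It also had to hold 0 UMIs of Ptprc, Cdh5, Dpt, Scara5 and Cldn11, genes of leukocytes, endothelium and fibroblasts. Members were chosen by these 10 genes, which were therefore not tested. Of the 237 cells with 2 or more Rgs5 UMIs, 183 had another mural marker and 163 of these passed the bar on other cell types. Myh11, smooth muscle myosin heavy chain, was found in 150 of the 163 (92.0%). Cspg4 (the proteoglycan NG2) was found in 65 (39.9%), Cnn1 (calponin) in 52 (31.9%) and Pdgfrb (the PDGF receptor of mural cells) in 38 (23.3%), and Myh11 was the only one of the 4 in 57 members (35.0%). These shares describe the rule, since each member needed at least 1 of the 4 genes.

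The libraries held 3860028 to 16598959 UMIs each, with medians of 1066 to 1840 UMIs per cell. Mural cells had medians of 1690 UMIs in BLM and 2002 UMIs in Control rats. Barcodes present in more than 1 library numbered 314 of 25232, and 3 mural cells carried one. A free Rgs5 UMI turned up in 0.233% of BLM and 0.118% of Control leukocytes (cells with 2 or more Ptprc UMIs, medians of 1577 and 1897 UMIs), the background against which a share of cells with 1 UMI is read.

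The share of Rgs5 mural cells was higher in each BLM-treated lung than in every control lung. Mural cells were 60 of 3657 cells (1.64%), 32 of 7481 cells (0.428%) and 65 of 3871 cells (1.68%) in BLM rats 1 to 3. They were 0 of 3372, 3 of 2568 (0.117%) and 3 of 4598 (0.0653%) in Control rats 1 to 3, and the 0 allows a share of up to 0.089% (3 counts of the total). The exact (Clopper-Pearson) 95% intervals were 1.25% to 2.11%, 0.293% to 0.603% and 1.30% to 2.14% in BLM, against 0.0241% to 0.341% and 0.0135% to 0.191% in Control rats 2 and 3. They cover counting error only. The mean share was 1.25% ± 0.712 in BLM and 0.0607% ± 0.0585 in Control rats (SD, n = 3 each; exact two-sided permutation p = 0.1, the smallest p that 3 against 3 rats allow). BLM rat 2, the library with the most cells, lay well below the other BLM rats but above every Control rat. The digested piece, the dissociation and the treatment cannot be told apart in a share of recovered cells.

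Other cells of the stroma were also recovered more often from BLM lungs. Fibroblasts, taken as cells with 2 or more UMIs summed over Dpt, Scara5 and Cldn11 and none of Rgs5, Ptprc, Cdh5 or Msln, numbered 164, 607 and 184 in BLM and 20, 44 and 72 in Control rats. Against mural cells and fibroblasts together, the mural share was 26.8%, 5.01% and 26.1% in BLM rats and 0% (0 of 20 cells, which allows up to 15%), 6.38% and 4.0% in Control rats, with means of 19.3% ± 12.4 and 3.46% ± 3.23 (SD, n = 3 each; exact two-sided permutation p = 0.2). The groups overlapped there, since BLM rat 2 fell below 1 Control rat. Among cells with 2 or more Myh11 UMIs, none of the barred genes and either 0 or at least 2 Rgs5 UMIs, those with Rgs5 made up 42.3%, 18.9% and 33.6% in BLM rats, against 0%, 8.33% and 0% in Control rats. These shares rested on 123, 143 and 131 cells in BLM and on 7, 12 and 43 cells in Control rats, and did not overlap, although the 0 of 7 and 0 of 43 cells allow shares of up to 42.9% and 6.98% (means 31.6% ± 11.8 and 2.78% ± 4.81, SD, n = 3 each; exact two-sided permutation p = 0.1). With cells of exactly 1 Rgs5 UMI kept in the total, a choice made after seeing the data, the shares were 34.0%, 16.2% and 28.9% in BLM rats against 0%, 8.33% and 0% in Control rats (exact two-sided permutation p = 0.1, n = 3 each).

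**Figure D1:**
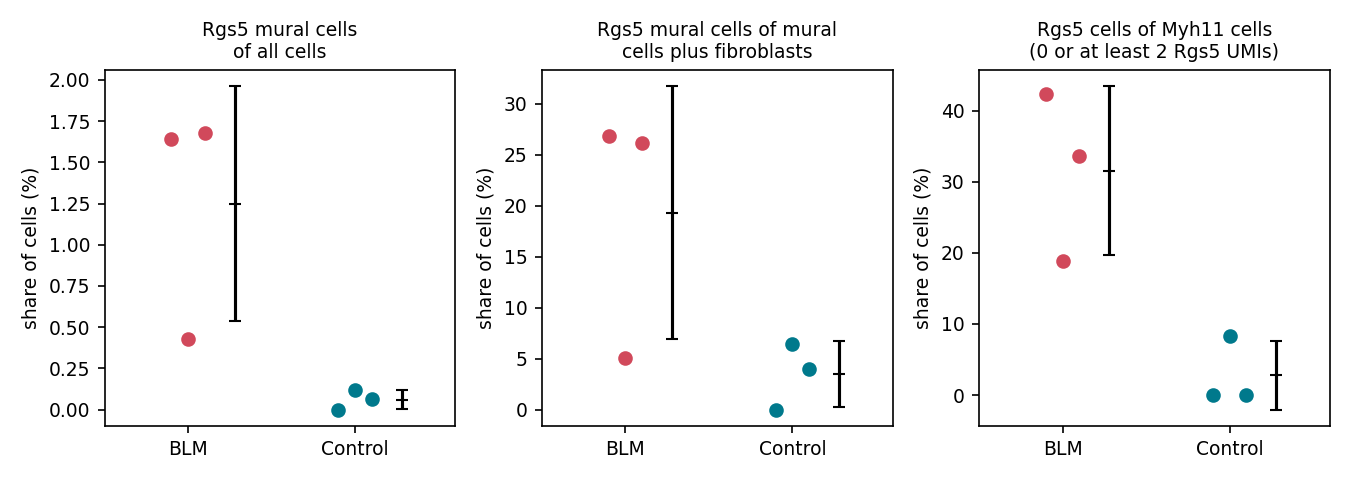
Share of cells in percent, 1 point per rat, with the mean and SD of each group as a bar (n = 3 each), for Rgs5 mural cells among all cells, among mural cells plus fibroblasts, and for Rgs5 cells among cells with 2 or more Myh11 UMIs and either 0 or at least 2 Rgs5 UMIs. In the first panel BLM rats lie at 0.428% to 1.68%, above all Control rats, and in the second BLM rat 2 at 5.01% lies within the Control range.

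The name mural was checked against genes the rule did not use. Levels are given as CPM, the UMIs of a gene per 1000000 UMIs of the class in a rat. A panel of 9 contractile genes (Acta2, Tagln, Actg2, Myl9, Tpm2, Lmod1, Synpo2, Mylk and Smtn) summed to 23430, 22160 and 18800 CPM in the mural cells of BLM rats, against 889, 1006 and 2147 CPM in their fibroblasts. A panel of 11 pericyte genes, among them the KATP channel subunits Kcnj8 and Abcc9, Higd1b and Notch3, summed to 5388, 6465 and 5864 CPM in mural cells, against 461, 556 and 431 CPM in fibroblasts. Mural cells thus carried both sets of transcripts in all 3 BLM rats, with no overlap with fibroblasts of BLM rats. Both sets were not particular to them. Rgs5-negative cells with 2 or more Myh11 UMIs, compared further below, had 32680, 30430 and 28300 CPM of the contractile panel in BLM rats. Their pericyte panel was at 3453, 2905 and 3211 CPM. In Control rats 2 and 3 the contractile panel was at 7008 and 11400 CPM in mural cells, below the 15090 and 18420 CPM of the cells classed as fibroblasts, and the pericyte panel was at 5918 and 20400 CPM against 1254 and 874 CPM.

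Markers of other cells were also summed. In mural cells of BLM rats the 7 endothelial markers summed to 256, 43.8 and 123 CPM, the 6 leukocyte markers to 530, 395 and 131 CPM, and the 6 fibroblast markers to 115, 0 and 115 CPM. Alveolar type 2 markers summed to 8.83, 526 and 30.8 CPM and erythroid markers to 26.5, 175 and 1870 CPM. The same lists stood at 788, 1439 and 2979 CPM (alveolar type 2) and at 141, 5700 and 147 CPM (erythroid) over all cells of these rats, so the erythroid sum of BLM rat 3 was higher in its mural cells. Their part in the results was not tested. Pdgfra, Cd52, Lamp3, Upk3b, Lrrn4 and Wt1 were at 0. The 3 mural cells of Control rat 2 stood apart, at 5762 CPM of endothelial and 934 CPM of leukocyte markers, and 1 of them held 39 UMIs of the alarmin Il33.

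The Rgs5 threshold cut through a range of cells. The 65 members with exactly 2 Rgs5 UMIs had 24000 CPM of the contractile panel and 5973 CPM of the pericyte panel, against 26340 and 5388 CPM in the 93 cells with 1 UMI that met the rest of the rule. Rgs5 itself was at 2102, 2411 and 3025 CPM in BLM rats and at 1090 and 964 CPM in Control rats 2 and 3, values that the rule set in part.

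Fibroblasts of the same BLM rats served as the first comparison, with UMIs summed per rat and class and the rat as a block in edgeR's quasi-likelihood test (Benjamini-Hochberg adjusted). The 10 genes with the largest rise in mural cells included Pln, P2rx1 and Bcam. Pln (phospholamban, the brake on the calcium pump of the sarcoplasmic reticulum) was at 512, 351 and 523 CPM in mural cells, against 0, 0.933 and 1.72 CPM in fibroblasts (log2 fold change 8.20 ± 0.44 SE). P2rx1, an ATP-gated cation channel, was at 406, 285 and 423 CPM in mural cells and at 1.75, 0.467 and 0 CPM in fibroblasts. Bcam, a laminin receptor, was at 1122, 877 and 885 CPM in mural cells and at 5.26, 2.33 and 3.45 CPM in fibroblasts (log2 fold change 7.75 ± 0.34 SE, adjusted p = 2.03e-10). In each of these genes the fibroblasts of every rat lay far below its mural cells. Bcam was also at 650.5, 564.8 and 918.4 CPM in the Rgs5-negative Myh11 cells of the closer comparison below, where Pln was lower in mural cells.

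Over all 6224 genes tested, 9.22% were higher and 15.9% lower in mural cells, and the median log2 fold change was -0.09. Of the contractile apparatus list, 24 of 27 genes tested were higher and 1, the creatine kinase Ckb, lower, with a median of 2.45. Acta2 (smooth muscle actin) was at 3754, 3792 and 3040 CPM in mural cells, against 80.6, 72.8 and 145 CPM in fibroblasts (log2 fold change 4.88 ± 0.28 SE, adjusted p = 1.28e-09). Tagln (transgelin, an actin binding protein) was at 5211, 5611 and 4202 CPM in mural cells, against 123, 168 and 300 CPM in fibroblasts. The cells of BLM lungs that met the fibroblast rule thus held little of either transcript at this time. That rule need not include the stromal cluster high in Acta2, Actg2 and Myh11 that the paper annotates as myofibroblasts. The paper also proposes that vascular smooth muscle and perivascular cells may be part of its stromal population.

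Of the pericyte list, 17 of 23 genes were higher and 1, Postn, lower, with a median of 4.10. Postn turned to higher with 1 cell per sum (1.08) and at an Rgs5 minimum of 1 UMI (1.02, log2 scale). Mcam (CD146, an adhesion molecule of vessel walls) was at 1484, 1644 and 1539 CPM in mural cells, against 17.5, 7.0 and 10.3 CPM in fibroblasts (log2 fold change 6.87 ± 0.31 SE). Cox4i2, the oxygen-regulated subunit of cytochrome c oxidase, was at 618, 679 and 477 CPM in mural cells and at 5.26, 2.80 and 1.72 CPM in fibroblasts. Notch3, the receptor that keeps mural cells mature, was higher by 6.84 ± 0.56 on the log2 scale. Not all pericyte genes passed. Abcc9 did not pass the test (log2 fold change 0.56 ± 0.24 SE, adjusted p = 0.107), while its channel partner Kcnj8 was higher by 1.63 ± 0.40 (adjusted p = 0.00521).

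Of 30 tested genes for vascular tone, 22 were higher and 1, the sphingosine 1-phosphate receptor S1pr2, lower. The soluble guanylate cyclase subunit Gucy1b1, the receptor for nitric oxide, was higher by 6.63 ± 0.29 on the log2 scale, and Kcnk3, a background potassium channel whose mutation causes pulmonary hypertension in people, by 5.86 ± 0.32. The phosphodiesterases Pde3a and Pde5a, which break down cyclic nucleotides, were higher by 5.03 ± 0.81 and 3.06 ± 0.62.

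Matrix genes ran the other way. Of 23 fibrillar collagen and fibril assembly genes, 19 were lower in mural cells and 0 higher, with a median of -2.63. Col1a1 was at 318, 241 and 231 CPM in mural cells, against 25800, 19960 and 13890 CPM in fibroblasts (log2 fold change -6.52 ± 0.27 SE, adjusted p = 2.03e-10). Col3a1 was at 662, 1052 and 962 CPM in mural cells, against 25530, 28180 and 22120 CPM in fibroblasts. The mural cells of every BLM rat thus carried far less fibrillar collagen RNA than its fibroblasts. Fbln1 and Mfap5, both of elastic and microfibril networks, had no UMI in the mural cells of BLM rats and were at least 235-fold and 218-fold lower, set against a floor of 3 UMIs over the mural cells of the group.

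The basement membrane list was split, with 5 of 16 genes higher and 7 lower. Col4a1, the sheet-forming collagen, was at 1007, 1622 and 1455 CPM in mural cells, against 373, 239 and 364 CPM in fibroblasts (log2 fold change 1.73 ± 0.24 SE). Col18a1 was higher by 3.11 ± 0.28 and the laminin chain Lama5 by 2.96 ± 0.46. Of 25 matricellular and elastic fibre genes 19 were lower and 1, Thbs1 (thrombospondin), higher. Sparc, a collagen-binding glycoprotein, was at 5202, 5063 and 5818 CPM in mural cells against 18360, 16500 and 15350 CPM in fibroblasts. Mgp, the calcification inhibitor matrix Gla protein, did not separate the classes, at 25030, 30660 and 23840 CPM in mural cells against 24380, 16790 and 31280 CPM in fibroblasts (log2 fold change -0.16, adjusted p = 0.691).

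Signals between mural cells and endothelium differed gene by gene, with 12 of 28 higher and 10 lower. The Notch targets Hey2 and Nrarp were higher, Hey2 at 618, 241 and 431 CPM in mural cells against 10.5, 11.7 and 0 CPM in fibroblasts (log2 fold change 5.21 ± 0.49 SE) and Nrarp by 6.20 ± 0.33. Angpt2, an antagonist of the Tie2 receptor usually linked to endothelium, was at 247, 307 and 285 CPM in mural cells, against 8.76, 1.40 and 10.3 CPM in fibroblasts. Of 26 cytokine, chemokine and adhesion genes, 19 were lower and 0 higher, and of 25 TGF-beta and BMP genes 9 were lower and 3 (Id1, Fst and Thbs1) higher. Of 17 proteases and inhibitors 9 were lower and 3 higher, and the growth factor Igf1 was lower (log2 fold change -6.09 ± 0.39 SE), 1 of 4 lower genes among 8 of the IGF axis. Of 20 glycolysis and hypoxia genes 12 were higher and 2 lower, and of 23 oxidative phosphorylation genes 10 were higher and 0 lower. Of 24 transcription factors of the mural list 12 were higher and 4 lower, with Mef2c higher by 3.58 ± 0.31, the smooth muscle coactivator Myocd by 2.93 ± 0.69 and Foxs1 by 1.74 ± 0.28.

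The counts rested partly on sample and tool. DESeq2 called 953 genes (393 higher, 560 lower) where edgeR called 1562, and leaving out a rat gave 886 (without BLM rat 1) to 1545. Among the called genes, 118 had no UMI in mural cells of BLM rats and 5 none in fibroblasts. Sftpc, an alveolar surfactant gene, was also called higher (3.54 ± 0.99 on the log2 scale, adjusted p = 0.0205), with a maximum of 22 UMIs in 1 mural cell, as was the endothelial marker Emcn (3.28 ± 0.93, adjusted p = 0.0153), and the part of transcripts from other cells in these calls was not tested. Leaving out the 5 mural cells with 3 or more endothelial or leukocyte UMIs gave 1564 calls.

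**Figure D2:**
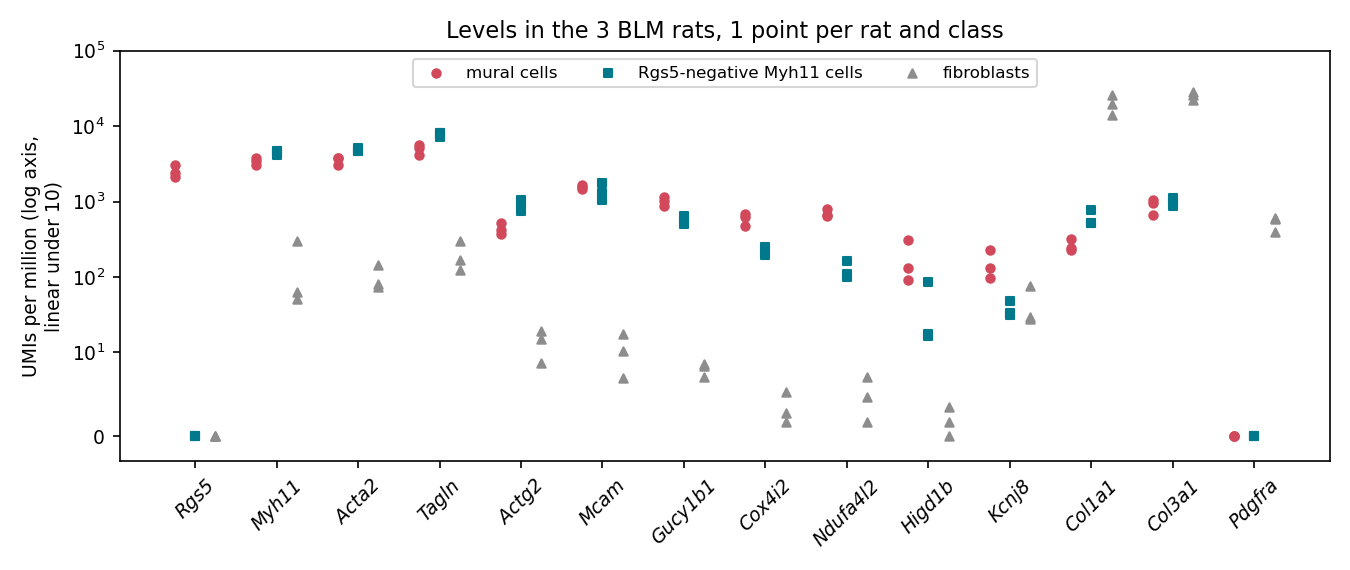
CPM in mural cells, Rgs5-negative Myh11 cells and fibroblasts of the 3 BLM rats, 1 point per rat and class, on an axis that is logarithmic above 10 and linear below. Acta2 lies at 3040 to 3792 in mural cells against 72.8 to 145 in fibroblasts, while Col1a1 lies at 231 to 318 against 13890 to 25800.

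The closer comparison was with cells that had 2 or more Myh11 UMIs, no Rgs5 and none of the barred genes, 335 in all and 71, 116 and 87 in BLM rats 1 to 3. Both classes were chosen on Myh11 and Rgs5 UMIs of the same cells, and this comparator demands more Myh11 than the members do, so contractile levels were also compared with both classes at 2 or more Myh11 UMIs. Of 3045 genes tested, 2.89% were higher and 2.33% lower in mural cells, with a median log2 fold change of -0.01. DESeq2 called 33 genes (18 higher, 15 lower) where edgeR called 159, and 23 genes were called in every setting tried. Without BLM rat 3 the count was 82.

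Of the pericyte list, 11 of 20 genes were higher and 0 lower, with a median of 0.97. Vtn (vitronectin, a plasma and matrix adhesion protein that pericytes make) was at 61.8, 197 and 115 CPM in mural cells, against 0, 18.6 and 0 CPM in Rgs5-negative Myh11 cells (log2 fold change 4.19 ± 0.94 SE, adjusted p = 0.00199). Ndufa4l2, a hypoxia-induced mitochondrial protein, was at 636, 789 and 654 CPM in mural cells, against 108, 161 and 101 CPM in Rgs5-negative cells (log2 fold change 2.48 ± 0.24 SE, adjusted p = 6.28e-11). Higd1b, a mitochondrial protein used as a pericyte marker, was at 133, 307 and 92.4 CPM in mural cells and at 16.7, 86.9 and 17.8 CPM in Rgs5-negative cells (log2 fold change 2.15 ± 0.44 SE, adjusted p = 0.000794). In every one of these genes each mural value lay above all Rgs5-negative values.

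Kcnj8 was at 97.2, 132 and 231 CPM in mural cells, against 33.4, 31.0 and 47.4 CPM in Rgs5-negative cells, and Abcc9 was at 565, 438 and 685 CPM against 250, 230 and 308 CPM. Both subunits of the vascular KATP channel were therefore higher in Rgs5 cells in the main fit (2.01 ± 0.43 and 1.08 ± 0.21 on the log2 scale, adjusted p = 0.00143 and 0.00049). Members without Myh11, which the comparator bars, were part of these sums. Of the pericyte genes named for this comparison, only Cox4i2 and Ndufa4l2 were called in every setting tried. Cox4i2 was higher by 1.35 ± 0.22 and the guanylate cyclase subunits Gucy1a1 and Gucy1b1 by 1.13 ± 0.24 and 0.83 ± 0.17. Rgs4, a close relative of Rgs5, was at 1237, 1994 and 593 CPM in mural cells, against 375, 646 and 302 CPM in Rgs5-negative cells. Notch3 was at 203, 132 and 262 CPM against 100, 86.9 and 119 CPM, which did not pass the test (adjusted p = 0.0643), nor did Mcam (adjusted p = 0.717).

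Of the contractile list, 0 of 27 genes were higher and 11 lower, with a median of -0.47. Acta2 was at 3754, 3792 and 3040 CPM in mural cells, against 5079, 4717 and 4616 CPM in Rgs5-negative cells (log2 fold change -0.48 ± 0.10 SE, adjusted p = 0.00177). Mylk, the kinase that switches smooth muscle myosin on, was at 3144, 2959 and 2986 CPM against 4378, 4966 and 5410 CPM, and the enteric-type actin Actg2 was at 521, 373 and 416 CPM against 959, 1049 and 741 CPM. The values of the classes did not overlap for these 3 genes. With both classes at 2 or more Myh11 UMIs, 65 of all 2738 genes tested were higher in mural cells and 59 lower. Of the 27 contractile genes, 6 were then lower and 0 higher, Mylk (-0.59 ± 0.11), Tagln (-0.52 ± 0.11) and Actg2 (-0.81 ± 0.19) among them. Acta2 did not pass (-0.30 ± 0.11, adjusted p = 0.105). Of 18 pericyte genes, 7 were higher and 0 lower. Actc1, cardiac actin and 1 of the 10 genes with the largest fall, was at 8.83, 21.9 and 30.8 CPM in mural cells against 384, 298 and 705 CPM in Rgs5-negative cells (log2 fold change -4.58 ± 0.39 SE, adjusted p = 2.69e-12). Cardiac muscle markers, a list that holds Actc1, summed to 17.7, 43.8 and 46.2 CPM in mural cells against 467, 317 and 948 CPM in Rgs5-negative cells, and leukocyte markers to 530, 395 and 131 CPM against 275, 1719 and 225 CPM. With cells of 3 or more endothelial or leukocyte UMIs left out of both classes, 186 genes were called, and 155 of the 159 kept their call. Beyond that, the part of these markers in the differences was not tested.

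**Figure D3:**
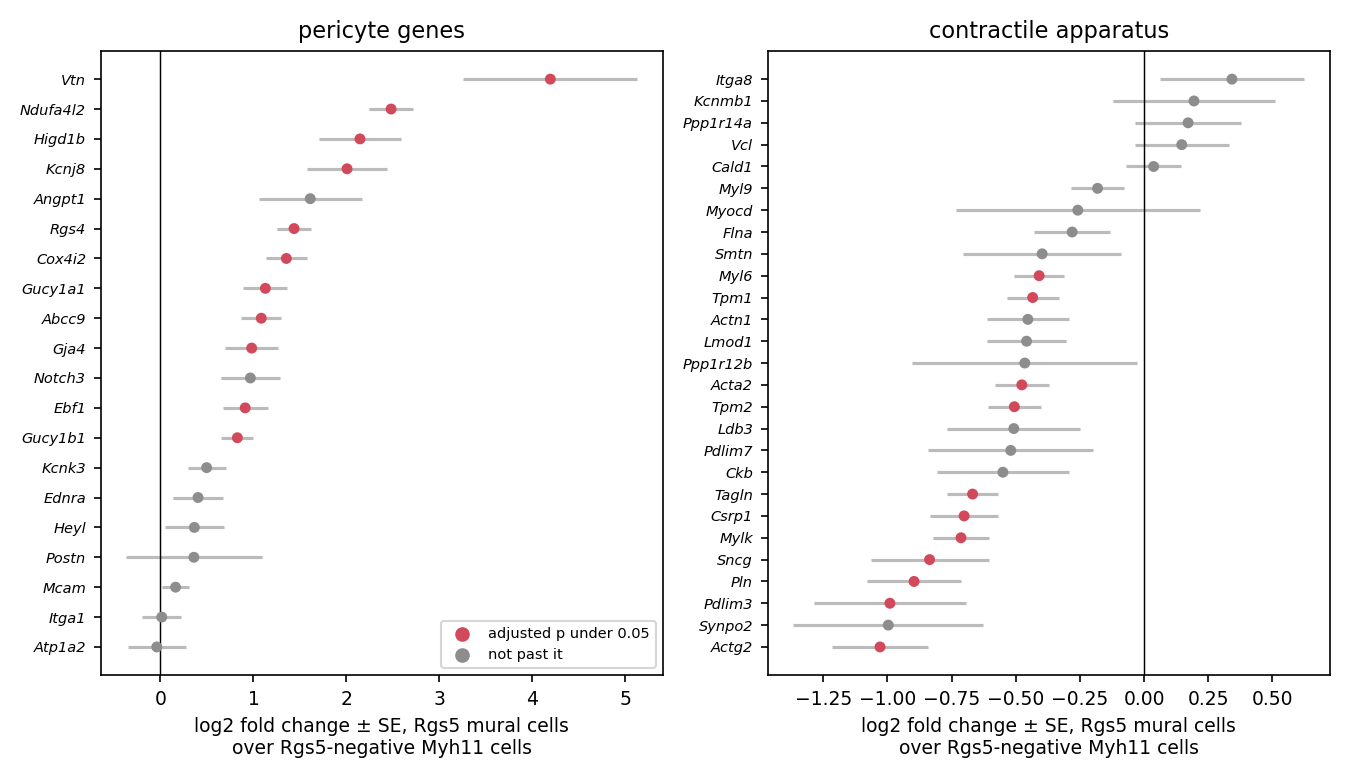
Log2 fold change of Rgs5 mural cells over Rgs5-negative Myh11 cells with its standard error for the tested genes of the pericyte list and the contractile list (3 BLM rats, edgeR), coloured where the adjusted p was under 0.05. Pericyte genes run from about 0 to 4.19 for Vtn, and the called contractile genes all lie below 0, down to -1.03 for Actg2.

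Promoters were read for a gene from each direction, Vtn higher and Actc1 lower in mural cells, because both hold a motif of interest for mural cells. Sequences are RefSeq promoters of the rat build GRCr8, from 250 bases before to 50 after the start, and both strands were searched. The CArG box, bound by serum response factor at muscle genes, was found in 1 of 23 contractile promoters (Ldb3) and in 0 of 19 pericyte promoters, against 1.64% of 33469 promoters. GTGGGAA, the core that the Notch effector RBPJ binds, was found in 3 of 19 pericyte promoters (Itga1, P2ry14 and Vtn), in 2 of 23 contractile promoters (Actn1 and Mylk) and in 4 of 33 promoters of the vessel signal list, against 6.29% of all. Capitals mark the match, in Vtn (chr10:63892532-63892831, plus strand) on the opposite strand as TTCCCAC and in Actc1 (chr3:121271778-121272077, minus strand) as a CArG box.
Vtn: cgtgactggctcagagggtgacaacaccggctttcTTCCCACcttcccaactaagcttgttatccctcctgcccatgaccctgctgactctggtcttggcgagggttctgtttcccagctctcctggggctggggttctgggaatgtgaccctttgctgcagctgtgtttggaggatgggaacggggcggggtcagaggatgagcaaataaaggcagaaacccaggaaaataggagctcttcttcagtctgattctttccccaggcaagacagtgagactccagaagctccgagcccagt
Actc1: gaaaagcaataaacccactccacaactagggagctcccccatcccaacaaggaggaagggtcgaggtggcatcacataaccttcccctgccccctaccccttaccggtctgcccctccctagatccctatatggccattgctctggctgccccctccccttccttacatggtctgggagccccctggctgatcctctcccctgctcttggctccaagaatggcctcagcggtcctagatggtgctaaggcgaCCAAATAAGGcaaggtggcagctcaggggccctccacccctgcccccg
A match describes these letters only.

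Other differences between the Myh11-bearing classes were spread over functions. Ccnd1, cyclin D1, was at 1113, 899 and 1447 CPM in mural cells, against 234, 211 and 94.8 CPM in Rgs5-negative cells (log2 fold change 2.71 ± 0.27 SE, adjusted p = 4.21e-06). Agt, the angiotensin precursor, was at 309, 745 and 115 CPM against 16.7, 55.9 and 71.1 CPM, and Ifitm1, an interferon-induced membrane protein, at 124, 438 and 254 CPM against 0, 62.1 and 35.6 CPM. Epas1, the hypoxia-inducible factor HIF-2alpha, was higher by 0.99 ± 0.15 and the Notch feedback regulator Nrarp by 0.88 ± 0.17. All of these were higher in mural cells of each rat. Nrp1 (neuropilin, a coreceptor for VEGF and semaphorins) and the cytokine Il34 were also higher, by 1.38 ± 0.31 and 1.73 ± 0.43, and Vegfa was lower (-1.43). Of 20 tone genes 5 were higher and 2 lower, the endothelin receptor Ednrb (-1.38 ± 0.34) and Pln.

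Matrix genes took both directions. Col4a1 was at 1007, 1622 and 1455 CPM in mural cells, against 617, 528 and 907 CPM in Rgs5-negative cells (log2 fold change 0.95 ± 0.17 SE), and Col1a1 was at 318, 241 and 231 CPM against 767, 515 and 521 CPM (-1.21 ± 0.22). Fn1 (fibronectin) was lower (-1.72 ± 0.27), as was Vcam1, an adhesion molecule for leukocytes (-2.64 ± 0.57). Cyp1b1, a cytochrome that metabolises steroids and retinoids, had no UMI in mural cells of BLM rats against 75.1, 261 and 101 CPM in Rgs5-negative cells, which makes it at least 14.5-fold lower on a floor of 3 UMIs over the group.

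Within the members, the presence of Myh11 was set against its absence. Myh11 was found in 58 of 60 (96.7%), 31 of 32 (96.9%) and 57 of 65 (87.7%) mural cells of BLM rats and in 2 of 3 cells of each of Control rats 2 and 3. Only 13 members lacked it, and their median depth was 2534 UMIs against 1659.5 UMIs in those that had it. The contractile panel was at 24270, 22510 and 21570 CPM in Myh11-positive and at 6114, 5348 and 6556 CPM in Myh11-negative mural cells of BLM rats. In Control rats 2 and 3 it was at 10810 and 15030 CPM in Myh11-positive cells (2 cells each) against 1184 and 7241 CPM in Myh11-negative cells, which were 1 cell in each rat. The pericyte panel took no single direction in BLM rats, at 5473, 6444 and 5614 CPM in Myh11-positive against 3630, 7487 and 6974 CPM in Myh11-negative cells. For the few cells of Control rats 2 and 3 it was at 9262 and 21050 CPM in Myh11-positive against 789 and 19660 CPM in Myh11-negative cells.

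BLM rat 3 was the only rat with 5 or more cells in both, so its values are a description. Its 57 Myh11-positive cells had 3425 CPM of Acta2 and 4934 CPM of Tagln, against 1336 and 960.5 CPM in its 8 Myh11-negative cells. The pericyte channel genes Kcnj8 and Abcc9, picked from the 11 of the panel, ran opposite, at 104 against 794 CPM and at 443 against 1754 CPM. The whole pericyte panel was at 5614 CPM in its Myh11-positive against 6974 CPM in its Myh11-negative cells. Col3a1 was at 736 against 1963 CPM and the chemokine Ccl2 at 9.44 against 543 CPM. Taking every rat with at least 1 cell of each kind, 6 of 69 genes (8.70%) passed edgeR's test. Eln, Acta2, Tagln, Tpm1 and Tpm2 were higher in Myh11-positive cells, Acta2 by 2.86 ± 0.74 on the log2 scale (adjusted p = 0.0287), and Procr, the endothelial protein C receptor, was lower (-2.88 ± 0.75). Of the pericyte panel, Gucy1a1 (0.93 ± 0.85) and Gucy1b1 (0.87 ± 0.65) did not pass, nor did Higd1b in the other direction (-1.41 ± 0.73). The 142 members with 1000 or more UMIs were also thinned to 1000 UMIs each, and Myh11 was read again from the thinned counts. Members that lost their Myh11 UMIs then counted as Myh11-negative, so this fit changed the classes as well as the depth. Of its 119 genes, 0 were higher and 2 lower (Cxcl1 and Apold1), and Acta2 stood at 0.50 ± 0.65 (adjusted p = 0.779). Without thinning, the count was 1 of 47 genes tested without BLM rat 1 and 4 of 66 without BLM rat 2. It was 26 of 400 and 24 of 387 without Control rats 2 and 3. With an Rgs5 minimum of 3 UMIs it was 0 of 864, where 99 genes had an unadjusted p under 0.05.

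The balance of contractile and pericyte transcripts was also read cell by cell. In the 142 members with 1000 or more UMIs, each thinned to 1000 UMIs, the contractile panel had a median of 21 UMIs per cell (1 to 58) and the pericyte panel a median of 5.5 (0 to 32). Across cells of a rat, which share a library, Spearman's rho between the panels was -0.37, -0.29 and -0.16 in BLM rats 1 to 3 (56, 25 and 55 cells), a weak tendency in sparse counts and no finding.

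**Figure D4:**
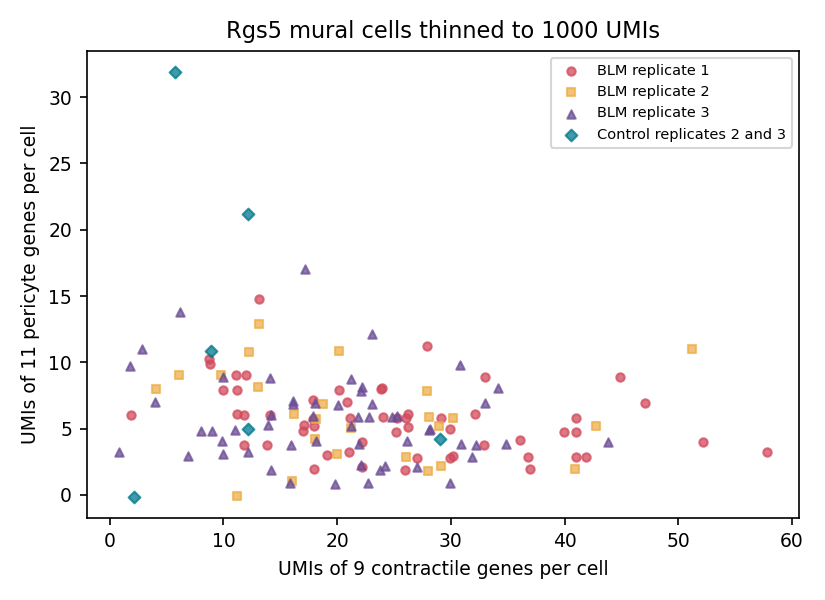
UMIs of the 11 pericyte genes against UMIs of the 9 contractile genes in each mural cell thinned to 1000 UMIs, with points shifted slightly to keep equal cells apart. Cells form a single cloud with contractile sums of 1 to 58 UMIs, and a Control cell holds the most pericyte UMIs, 32.

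The effect of BLM on gene levels within mural cells could only be described loosely, since no Control rat had 5 mural cells. Sums over 3 cells each of Control rats 2 and 3 were set against the 3 BLM rats, and edgeR called 85 of 1121 genes (7.58%), 54 higher and 31 lower in BLM, with a median log2 fold change of 0.33 over all genes. Among 19 contractile genes tested, 10 were higher and 0 lower, with a median of 1.44. Of 17 pericyte genes 0 were higher and 3 lower (median -0.157), and of 10 proteases and inhibitors 4 were higher and 0 lower. Acta2 was at 3754, 3792 and 3040 CPM in BLM rats, against 1713 and 643 CPM in Control rats (log2 fold change 1.86 ± 0.38 SE, adjusted p = 0.00473). Tagln was at 5211, 5611 and 4202 CPM in BLM rats, against 1246 and 3052 CPM in Control rats. BLM values lay above both Control values in each.

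Of 10 fibrillar collagen genes tested, Col1a1, Col3a1 and Col6a1 were lower in BLM mural cells and 0 were higher. Col3a1 was at 662, 1052 and 962 CPM in BLM rats, against 5762 and 5300 CPM in Control rats (log2 fold change -2.36 ± 0.29 SE, adjusted p = 6.44e-05), and Sparc was at 5202, 5063 and 5818 CPM against 13240 and 20720 CPM. At an Rgs5 minimum of 3 UMIs, Sparc and Col1a1 turned to higher in BLM (0.17 and 0.42 on the log2 scale), but the Control arm then was a single cell of Control rat 2. Mgp moved the other way, at 25030, 30660 and 23840 CPM in BLM rats against 7008 and 8673 CPM in Control rats. Gadd45b, a stress and DNA damage response gene, was at 2341, 2389 and 3317 CPM in BLM rats against 623 and 482 CPM in Control rats (log2 fold change 2.57 ± 0.44 SE, adjusted p = 0.00137). Slfn5 was at 221, 263 and 316 CPM in BLM rats against 2803 and 2088 CPM in Control rats (-2.89 ± 0.41).

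These calls rest on 6 Control cells. Gadd45b, Slfn5 and Col3a1 kept their call with each rat left out, with a largest adjusted p of 0.0451, and Gadd45b alone was called in every setting tried. Without Control rat 2 or 3 a single library of 3 cells stood for Control, assumed to vary like the BLM rats. Leaving out a BLM rat gave 9 calls of 463 genes (rat 3), 12 of 459 (rat 1) and 99 of 1274 (rat 2). Endothelial markers were at 43.8 to 256 CPM in BLM rats against 5762 and 161 CPM in Control rats 2 and 3. With cells of 3 or more endothelial or leukocyte UMIs left out, 86 of 1184 genes were called, and 69 of the 85 kept their call. Beyond that, the part of endothelial transcripts in these differences was not tested. Myh11-positive mural cells gave 106 calls of 1273 genes (27 without BLM rat 1, 69 and 55 without Control rats 2 and 3), and Myh11-negative cells gave 0 of 28 in edgeR and 0 in DESeq2, with 3 genes at an unadjusted p under 0.05. The difference of the BLM effect between the Myh11 classes passed edgeR's test in 0 of 69 genes (6 at an unadjusted p under 0.05, 0 calls in DESeq2).

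The BLM effect was also set against that in fibroblasts of the same rats, in a model with the rat as a block. It differed between the classes in 246 of 3940 genes (6.24%), 190 toward higher in BLM mural cells and 56 toward lower, around an all-gene median of 0.999 on the log2 scale. Under RLE factors the split was 131 and 61 around 0.707, and DESeq2 called 111. Leaving out Control rat 2 or 3 gave 79 or 67 calls, and leaving out BLM rat 1 or 2 gave 141 or 163. Of 26 contractile genes 19 differed, all toward mural cells, with a median of 4.68. In fibroblasts, Acta2 was at 80.6, 72.8 and 145 CPM in BLM rats against 2090 and 2144 CPM in Control rats 2 and 3. Contractile RNA summed over the panel was at 15090 to 18420 CPM in Control fibroblasts against 889 to 2147 CPM in BLM fibroblasts. The cells that met the fibroblast rule also differed in other genes, with C7 at 624, 1090 and 567 CPM in BLM rats against 198, 135 and 27.8 CPM in Control rats 1 to 3, and Adamts8 at 130, 140 and 195 CPM against 538, 480 and 1048 CPM. A change within fibroblasts and a different make-up of the class cannot be told apart here. Of 21 fibrillar collagen genes, Col1a1 and Col3a1 differed, both toward lower in BLM mural cells.

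**Figure D5:**
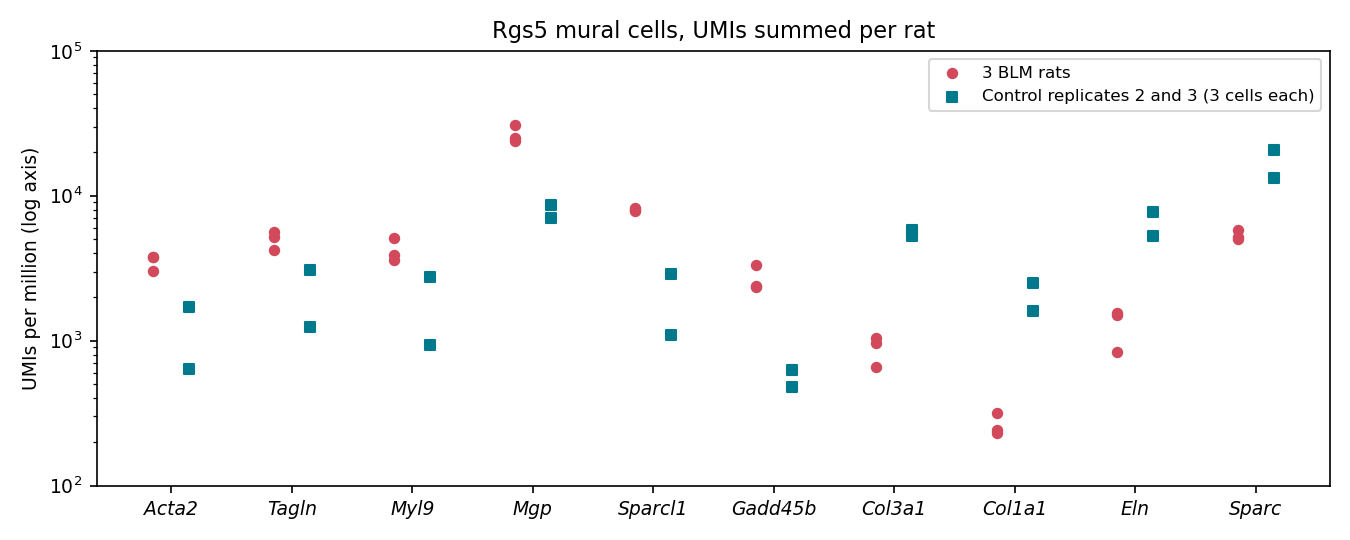
CPM (log axis) in mural cells for 10 genes, 1 point per rat, in the 3 BLM rats and in Control rats 2 and 3 with 3 cells each. Acta2 lies at 3040 to 3792 in BLM against 643 and 1713 in Control, and Col3a1 at 662 to 1052 against 5300 and 5762.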

How the data were processed

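Whole transcriptome libraries of 3 BLM and 3 Control rat lungs were made on the BD Rhapsody system, 1 library per lung. The authors deposited raw UMI counts, as 1 table of 25547 cells by 16383 genes, after their own selection of cells. The submitters' notes name the build mm9, a mouse build; the aligner is not given in the sources used here, nor is a doublet step, and none was added. Members, lists and tests were chosen with earlier results of these data known. UMIs were summed per rat and class (at least 5 cells) and tested in edgeR 4.0.16 (quasi-likelihood, robust, filterByExpr, TMM, rat as a block within rats, Benjamini-Hochberg 0.05), with DESeq2 1.42.0, RLE factors, no filter, each rat left out and other rules on cells as alternatives. The script was tested on simulated data. Shares were compared by exact permutation over rats. In fits with the rat as a block, the p-values measure how the class difference varied between these rats. Otherwise they measure the spread between rats, which for sums of 3 Control mural cells also holds the sampling of cells. Genes named were list members past the test and the 10 largest changes per direction at 50 CPM or more with every rat the same way, plus genes shown for contrast that did not pass. The comparison with Rgs5-negative Myh11 cells was chosen after seeing the data.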

Additional observations from a re-analysis of the deposited data

Results flagged for a closer look

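The effect of BLM differed between mural cells and fibroblasts of the same rats in 246 genes by the test of that difference in edgeR, with Control mural cells numbering 6. On the log2 scale, mural effect minus fibroblast effect, Acta2 was at 6.76 ± 0.50 (SE) and Tagln at 6.80 ± 0.48, with both higher in BLM mural cells and lower in the BLM cells that met the fibroblast rule. That class differed between the groups in other genes too (Sfrp1 at 1406, 1254 and 738 CPM in BLM rats against 85.0, 234 and 20.8 CPM in Control rats), so its make-up and a BLM effect within it cannot be told apart. Gadd45b was at 2.66 ± 0.59. Col1a1 was at -3.08 ± 0.55, Col3a1 at -2.14 ± 0.47 and Slfn5 at -2.77 ± 0.50. The median over all genes tested was 0.999, so each is read against that shift. These genes were chosen after their values were seen, and 34 genes were called in each of the 9 fits run.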

How the results depend on the processing

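The BLM and Control tests, the Myh11 split and both tests of a difference in BLM effect were planned on sums of at least 5 cells and could not be fitted, since no Control rat had 5 mural cells. All were fitted on rats with at least 1 cell, a setting combined with the others after seeing the data. The number of genes tested differed between many settings, so the counts of calls below do not share a total. BLM over Control, for example, tested 463 genes without BLM rat 3 and 10892 with no filter. The mural share stayed higher in BLM under each setting, its difference from 0.974 to 1.599 percentage points with a rat left out and 1.85 at 1 Rgs5 UMI, 0.762 at 3, 0.406 and 1.03 after thinning to 500 and 1000 UMIs. Mural cells over fibroblasts gave 953 calls in DESeq2, 960 with at least 1 cell per sum and 886 to 1545 with a rat left out. Mural cells over Rgs5-negative Myh11 cells gave 33 in DESeq2, 81 with no rat block and 82 to 172. The Myh11 split gave 1 to 26 with a rat left out, 13 and 0 at Rgs5 minimums of 1 and 3, 2 (both lower) after thinning, 31 at 2 or more Myh11 UMIs, 24 in BLM rats only and 1 with no rat block. BLM over Control gave 193 with no filter, 52 in DESeq2, 143 and 28 at Rgs5 minimums of 1 and 3, and 9 to 99 with a rat left out; in Myh11-positive cells it gave 50 in DESeq2 and 27 to 93, and in Myh11-negative cells 0 to 7. The BLM effect differed between mural cells and fibroblasts in 159 genes with no filter, 111 in DESeq2 and 67 to 194 with a rat left out (67 without Control rat 3), and between the Myh11 classes in 0 under each setting. With the replicate number as a block BLM over Control gave 40 calls in all mural cells, 36 in Myh11-positive and 0 in Myh11-negative cells. Deviations of same-numbered libraries correlated at 0.17, -0.16 and -0.18, and not every rat correlated best with its own number. A pairing by number was thus not seen, but 3 libraries per group cannot exclude it. Postn over fibroblasts reversed to 1.08 with at least 1 cell and 1.02 at 1 Rgs5 UMI. In BLM over Control, at 3 Rgs5 UMIs, where the Control arm is 1 cell of 1 rat, Col1a1 reversed to 0.42, Col4a1 to 0.44, Eln to 1.16, Gucy1b1 to 0.16, Sparc to 0.17, Tgfb2 to 6.11 and Zeb2 to 1.18, and with a rat left out Col4a1 ran from -1.448 to 0.13 and Gucy1b1 from -1.68 to 0.0938, reversed without Control rat 3. The cause was not tested.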

Other observations

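The rat olfactory receptor genes Olr59 and Olr63 were among the 10 most raised in mural cells over fibroblasts. Olr59 was at 309, 87.7 and 354 CPM in mural cells of BLM rats and at 0, 0.467 and 0 CPM in their fibroblasts, and Olr63 at 168, 219 and 208 CPM against 0, 0.467 and 0 CPM. Both were also present in Rgs5-negative Myh11 cells, where neither difference passed the test (adjusted p = 0.902 and 0.507). Blk, a kinase known from B cells, had no UMI in fibroblasts of BLM rats and was at 203, 43.8 and 100 CPM in mural cells, against 317, 286 and 202 CPM in Rgs5-negative Myh11 cells (log2 fold change -1.09 ± 0.31 SE, adjusted p = 0.0211).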
